A study of Mus musculus with 70 samples.

Results

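Heat shock proteins and other chaperones were followed in 7 brain regions of HAB and LAB mice. The set was taken from the spot Names of the MPIP24k cDNA array: every Name beginning, in any case, with heat shock, DnaJ, chaperonin, prefoldin or peptidylprolyl isomerase. This gave 82 of 22824 spots and 51 of 15191 distinct Names. Each Name was represented by its spot with the highest mean intensity over all arrays, and its other spots were read beside it. For 47 Names the gene symbol was unambiguous. Another 4 Names ("heat shock protein", "heat shock protein, 1", "heat shock protein, A" and "heat shock protein 2") may stand for several genes and are given as the array spells them. One Name, peptidylprolyl isomerase C-associated protein, belongs to Lgals3bp, which binds a cyclophilin and is not itself an isomerase.

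HAB and LAB mice are lines of CD-1 origin bred for high and low anxiety-related behavior, here male, 10 weeks old and sampled under basal conditions. RNA of 6 HAB mice and RNA of 6 LAB mice was pooled by line in the paraventricular nucleus (PVN), the basolateral/lateral (BLA), central (CeA) and medial (MeA) amygdala, the nucleus accumbens (NAc), the anterior cingulate cortex (Cg) and the supraoptic nucleus (SON). The pools were hybridized against each other on 10 arrays per region, 5 in each dye orientation. Values are log2 of HAB over LAB, positive when higher in HAB, and ± is the SD over the arrays of a region, which are technical replicates of 1 pair of pools. No unselected mice were on these arrays, and the p-values below measure the spread between arrays or regions of the same pools, not the spread between mice.

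Chaperones keep proteins folded. HSP70 proteins bind unfolded stretches and are driven by DnaJ proteins (the HSP40 family), which hand them their clients, HSP90 matures kinases and steroid receptors, the ring-shaped cytosolic chaperonin folds actin and tubulin delivered by prefoldin, and peptidylprolyl isomerases (cyclophilins) speed the turning of proline bonds. Under heat or other stress, heat shock factors bind repeats of the bases GAA in alternating orientation and raise the inducible members, while constitutive members such as Hspa8 are abundant in neurons, where Hspa8 also strips clathrin from synaptic vesicles. In the stress axis, HSP90 and its cyclophilin and FKBP partners hold the glucocorticoid receptor ready for its hormone.

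The share of probes above the empty spots was between 15.2% and 78.9% in the HAB channel of an array, and between 27.7% and 84.1% in the LAB channel. The lowest value came from 1 CeA array (HAB in Cy3, replicate 1), and the means of the main CeA members are given with and without it. Of the 51 members, 38 lay above the empty spots on at least 35 of the 70 arrays, as did 12510 of all 22824 probes (54.8%). Vasopressin and oxytocin, which define the PVN and SON, were both above the empty spots in the PVN pools, 1 of them was in the SON pools, and none in the other regions. None of the 3 markers of cortex and BLA was matched on the array.

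No chaperone passed the test for a line difference shared by the 7 regions. limma with Benjamini-Hochberg adjustment called 0 of 51 members, against 69 of 22824 probes (0.302%). At an unadjusted p under 0.05 there was 1 member (1.96%), against 6.33% of all probes. The means over the regions ran from -0.17 to 0.25 on the log2 scale with a median of -0.01, and 23 were positive and 28 negative. The member at the top was Ppia (cyclophilin A, the abundant cytosolic isomerase), which was also the only member higher in HAB in all 7 regions. Its mean was 0.25 ± 0.09 (SE over 7 regions, limma adjusted p = 0.485). The lowest was Dnajc3, which restrains the kinase PERK in the endoplasmic reticulum, with a mean of -0.17 ± 0.09 (SE, limma adjusted p = 0.84).

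**Figure D1:**
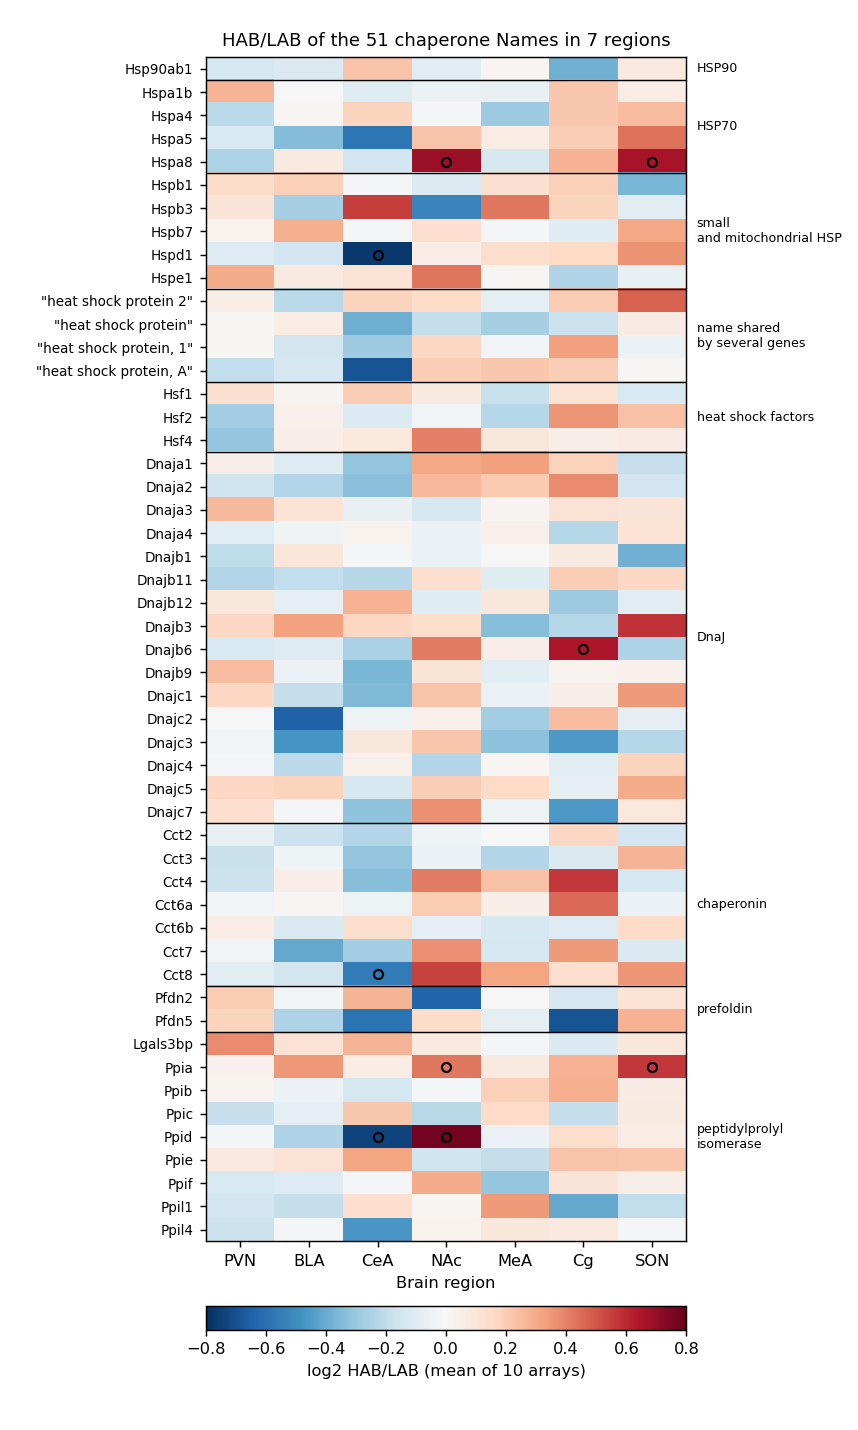
log2 HAB/LAB of the 51 chaperone Names (rows, grouped by family) in the 7 regions (columns), each cell the mean of 10 arrays, with red higher in HAB and blue higher in LAB. Open circles mark the 9 values of 1.3-fold or more whose 10 arrays share a sign, of which the NAc, SON and Cg hold the 6 higher ones and the CeA the 3 lower ones.

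For 8 members the difference was unequal over the regions. limma's F-test over the 70 arrays, with a term for the dye, passed 8 of 51 members (15.7%), against 4.06% of all 22824 probes and 7.08% of the 12510 probes above the empty spots. They were Hspa8 (adjusted p = 1.67e-05), Cct8 (1.65e-04), Dnajb6 (0.00218), Ppid (0.00402), Dnajb3 (0.0278), Pfdn5 (0.0309), Cct4 (0.0311) and "heat shock protein, A" (0.0383). Over all 82 member spots 13 passed. When the arrays of 1 replicate number were left out, 4 to 5 members passed, with Hspa8, Cct8 and Ppid among them each time. On the 35 arrays with HAB in Cy3 alone 3 passed, Hspa4, Hspa8 and Ppid, and on those with HAB in Cy5 alone 11 did. The share of all probes passing in these smaller fits is not given here, so these counts are not set against a background.

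Within a region a member was counted when its mean was at least 1.3-fold and all 10 arrays lay on the same side of 0. This held for 9 values of 6 members. In the NAc, 3 of 51 members were higher in HAB (5.88%, against 0.644% of all probes) and 0 were lower (all probes 1.35%). In the CeA, 3 were lower (5.88%, against 0.552%) and 0 higher (0.46%). In the SON, 2 were higher (3.92%, against 0.32%) and 0 lower (0.237%). In the Cg, 1 was higher (1.96%, against 0.767%) and 0 lower (0.824%). The PVN (0.254% of all probes higher, 0.482% lower), the BLA (0.057% and 0.166%) and the MeA (0.28% and 0.307%) held no member by this rule. Among the 12510 probes above the empty spots the share was 1.12% for higher in the NAc, 0.951% for lower in the CeA, 0.536% for higher in the SON and 1.34% for higher in the Cg. limma over the 10 arrays of a region, with a dye term and adjustment over all probes, called only Hspa8 and Ppid in the NAc. Among all probes this test called 59 as higher and 231 as lower in the NAc, the most of any region. The Cg came next, with 54 higher and 67 lower and 0 members.

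Hspa8, the constitutive HSP70 of the cytosol, held 2 of these values. In the NAc its brightest spot had a lowest value of 0.33, a median of 0.55 and a highest of 1.38, so that no array was below 0. The mean was 0.69 ± 0.34, or 1.62-fold, and its orientation means were 0.54 (HAB in Cy3) and 0.84 (HAB in Cy5) (limma adjusted p = 0.024). In the SON the lowest value was 0.14, the median 0.56 and the highest 1.66, again with every array above 0, and the mean was 0.66 ± 0.40 (1.58-fold). Without the array at 1.66 the mean over 9 arrays was 0.55 ± 0.20. In the Cg 9 of 10 arrays were above 0 with a mean of 0.28 ± 0.25, in the BLA the mean was 0.07 ± 0.35, and in the other regions the means were negative, at -0.25 ± 0.25 in the PVN, -0.15 ± 0.46 in the CeA (-0.04 ± 0.30 without the dim array) and -0.13 ± 0.18 in the MeA. Hspa8 thus was higher in HAB on every array of the NAc and SON and had 8 of 10 arrays on the side of LAB in the PVN and MeA. In normalized log2 intensity its level in the NAc was 13.09 ± 0.43 in HAB and 12.39 ± 0.59 in LAB, and in the SON 13.19 ± 0.43 in HAB and 12.54 ± 0.59 in LAB. Its highest level of either line was in the MeA, at 13.55 ± 0.36 in HAB and 13.68 ± 0.40 in LAB.

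The array carries 4 spots of Hspa8. The second brightest had a lowest value of 0.21, a median of 0.70 and a highest of 1.62 in the NAc, where its mean was 0.85 ± 0.50 (limma adjusted p = 0.00348), and in the SON its mean was 0.51 ± 0.46 with 9 of 10 arrays above 0. Over the 7 regions both bright spots had r = 0.947, a description over spots hybridized with the same RNA on the same arrays. The remaining spots had mean intensities of 578 and 337, were above the empty spots on at most 48 of 70 arrays in either line, and correlated with the brightest spot at -0.33 and 0.29. The spot of intensity 578 was at 0.02 in the NAc and at 0.02 in the SON, and that of intensity 337 at 0.37 and -0.12, so that the values of Hspa8 given here are those of its 2 bright spots only.

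**Figure D2:**
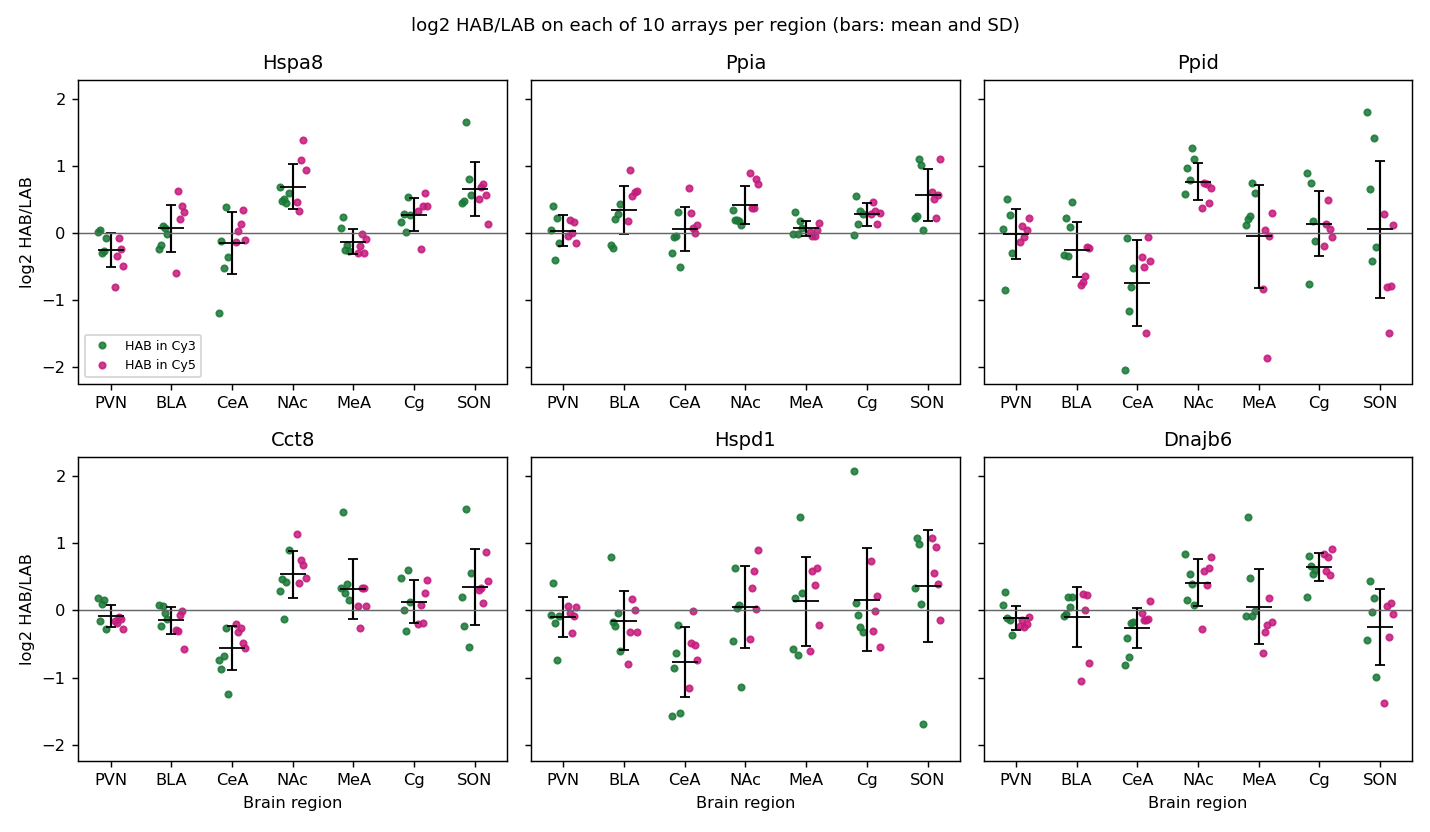
log2 HAB/LAB of 6 chaperones on each of the 10 arrays of a region, green for HAB in Cy3 and magenta for HAB in Cy5, with bars for the mean and SD. All 10 arrays lie above 0 for Hspa8, Ppia and Ppid in the NAc, for Hspa8 and Ppia in the SON and for Dnajb6 in the Cg, and all lie below 0 for Ppid, Cct8 and Hspd1 in the CeA.

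The other HSP70 Names showed no value by the same rule. Hspa5 (BiP, the HSP70 of the endoplasmic reticulum) came nearest in the CeA, where the lowest array was at -1.51, the median at -0.55 and the highest at 0.28. Its mean there was -0.58 ± 0.48 with 9 of 10 arrays below 0, and in the SON it was 0.43, but its F-test missed the threshold (adjusted p = 0.0604). Without the dim CeA array its mean was -0.67 ± 0.40. Over the 9 arrays left, where fewer signs must agree, Hspa5 was counted as a lower member of that region as well, which made 4. The share of all probes counted over 9 arrays is not given here, so the 4 are not set against a background. On their brightest spots the stress-inducible Hspa1b lay between -0.09 and 0.27 in all regions, and Hspa4, a nucleotide exchange factor of HSP70, between -0.29 and 0.25. A dimmer Hspa4 spot reached 0.47 in the BLA, 0.36 in the CeA and 0.35 in the NAc (mean over the regions 0.22, limma adjusted p = 0.656). That spot was above the empty spots on at most 40 of 70 arrays in either line. The other Hspa4 spots lay between -0.27 and 0.25.

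Hsp90ab1, the constitutive cytosolic HSP90, was lowest in the Cg, with a lowest array of -1.21, a median of -0.23 and a highest of 0.11. Its mean there was -0.38 ± 0.46 and 7 of 10 arrays were below 0, so the pools could not be told apart beyond the spread of the arrays. A dimmer Hsp90ab1 spot was at -0.37 in the Cg but at 0.52 in the BLA, where the brighter one was at -0.12. The transcription factor Hsf1, the main regulator of the heat shock response, ran from -0.18 in the MeA to 0.20 in the CeA, and Hsf2 from -0.28 to 0.35. Hsf4 was higher in 6 regions, up to 0.40 in the NAc, but it was above the empty spots on 9 of 70 arrays in HAB and 5 in LAB.

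Ppia was counted in the NAc and in the SON. Its lowest value in the NAc was 0.12, the median 0.36 and the highest 0.90, with a mean of 0.42 ± 0.28 (1.34-fold), and orientation means of 0.21 (HAB in Cy3) and 0.64 (HAB in Cy5). In the SON the lowest was 0.04, the median 0.54 and the highest 1.099, with a mean of 0.57 ± 0.39 (1.48-fold). Its array values lay above 0 throughout in those regions, in 9 of 10 arrays in the Cg (mean 0.28 ± 0.17) and in 8 of 10 in the BLA (0.34 ± 0.36). In the PVN, CeA and MeA the means of 0.03, 0.06 and 0.07 had 6 of 10 arrays above 0. Its normalized log2 intensity in the NAc was 12.77 ± 0.21 in HAB and 12.35 ± 0.20 in LAB, and in the SON it was 13.36 ± 0.45 in HAB and 12.79 ± 0.52 in LAB. The F-test gave Ppia an adjusted p of 0.0902, so that its differences were not shown to be unequal over the regions.

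Ppid, a cyclophilin that the array also labels cyclophilin D and that joins HSP90 in steroid receptor complexes, had opposite signs in the NAc and CeA. In the NAc its arrays ran from 0.38 over a median of 0.74 to 1.27, and in the CeA from -2.03 over -0.52 to -0.06. All 10 arrays of the NAc were above 0 and all 10 of the CeA were below it. The means were 0.77 ± 0.28 in the NAc (1.70-fold, limma adjusted p = 0.0075) and -0.74 ± 0.64 in the CeA (1.67-fold lower). In normalized log2 intensity it was at 10.94 ± 0.77 in HAB and 10.17 ± 0.81 in LAB in the NAc, and at 10.17 ± 1.07 in HAB and 10.91 ± 1.06 in LAB in the CeA. Without the dim CeA array the mean was -0.60 ± 0.48 over 9 arrays. The arrays were widely spread in the MeA (-1.86 to 0.75) and in the SON (-1.49 to 1.80), where the means were -0.05 and 0.06 and the dye orientations had opposite signs.

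The other isomerases had smaller differences. Ppib, of the secretory pathway, reached 0.29 in the Cg. Ppif, the mitochondrial cyclophilin of the permeability pore, ran from -0.31 in the MeA to 0.30 in the NAc. Ppil1 ran from -0.41 to 0.34, and Ppil4 was lowest in the CeA at -0.46. Lgals3bp had the highest PVN value among the representing spots of the 51 Names, at 0.38 ± 0.86, with a lowest array of -0.81, a median of 0.35 and a highest of 1.61, but it was above the empty spots on 3 PVN arrays in HAB and 0 in LAB.

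The chaperonin family holds 7 Names of the cytosolic ring. Of these, 6 were negative in the CeA, where their median was -0.28, 5 were positive in the Cg (median 0.16) and 4 in the NAc (0.21). Without the dim array the CeA median was -0.29, with 6 again negative. In the CeA 51.05% of all probes and 45.6% of the probes above the empty spots were positive, in the Cg 50.8% and 51.7%, and in the NAc 51.2% and 56.7%, so that the 4 of 7 in the NAc lie near the background. Cct8, the theta subunit, was at most -0.21 in the CeA, with a median of -0.52 and a lowest of -1.24, so that every array lay on the side of LAB. Its mean there was -0.56 ± 0.33 (1.48-fold lower), and -0.54 ± 0.34 without the dim array. In the NAc 9 of 10 arrays were above 0, from -0.13 over 0.47 to 1.14, with a mean of 0.54 ± 0.35, and in the MeA and SON the means were 0.32 ± 0.45 and 0.35 ± 0.57. Its normalized log2 intensity in the CeA was 10.87 ± 0.57 in HAB and 11.44 ± 0.70 in LAB, and in the NAc 11.61 ± 0.40 in HAB and 11.07 ± 0.15 in LAB.

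Cct4, the delta subunit, was at -0.34 ± 0.38 in the CeA (-0.34 ± 0.41 without the dim array), 0.42 ± 0.39 in the NAc and 0.57 ± 0.62 in the Cg. In the Cg its arrays ran from -0.87 over 0.73 to 1.46 with 9 of 10 above 0, and the spot was above the empty spots on 5 arrays in HAB and 2 in LAB, so that this value is of a dim spot. Cct6a reached 0.45 in the Cg and Cct7 -0.41 in the BLA. Cct2, Cct3 and Cct6b stayed between -0.32 and 0.27 in every region. Tcp1, the alpha subunit, whose Name begins otherwise, was at -0.30 in the CeA, at 0.16 in the NAc, and did not pass the F-test (adjusted p = 0.136).

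Hspd1, the mitochondrial HSP60 chaperonin, had the lowest CeA mean of all members over the 10 arrays, though not without the dim array, where Pfdn5 was lower. Its arrays ran from -1.57 over a median of -0.68 to -0.01, so that all 10 were below 0, the highest by 0.01. The mean was -0.77 ± 0.52 (1.70-fold lower), and -0.68 ± 0.46 without the dim array. The spot was above the empty spots on 4 of 10 CeA arrays in HAB and 8 in LAB. In the SON it was at 0.36 ± 0.84 and in the remaining regions between -0.15 and 0.16, and the F-test missed the threshold (adjusted p = 0.0911). Hspe1, the HSP10 lid of HSP60, was at 0.11 in the CeA and highest in the NAc at 0.43. The small heat shock proteins Hspb1, Hspb3 and Hspb7 had no value with all arrays on the same side, and their spots were dim, Hspb3 being above the empty spots on 19 of 70 arrays in HAB and 13 in LAB.

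The prefoldin Names were Pfdn2 and Pfdn5. Pfdn5 was lowest in the Cg, where its arrays ran from -1.37 over -0.76 to 0.26 with 9 of 10 below 0 and a mean of -0.69 ± 0.53. In the CeA it ran from -1.46 over -0.73 to 0.57 with a mean of -0.59 ± 0.71 (-0.71 ± 0.61 without the dim array), but lay above the empty spots on 2 CeA arrays in HAB and 6 in LAB. In the other regions its means were between -0.25 and 0.28. Pfdn2 was at -0.64 ± 1.05 in the NAc, where it was above the empty spots on 1 array in HAB and 3 in LAB.

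The DnaJ family is the largest, with 16 Names, of which 11 were positive in the NAc (median 0.14), 5 in the CeA (median -0.09, and -0.18 with 4 positive without the dim array) and 4 in the BLA (median -0.09). Of the probes above the empty spots 56.7% were positive in the NAc, 45.6% in the CeA and 47.4% in the BLA. Dnajb6, which keeps proteins with long glutamine stretches from aggregating, was higher in the Cg. Its lowest Cg array was at 0.21, the median at 0.63 and the highest at 0.91, all above 0, and the mean was 0.65 ± 0.21 (1.57-fold, limma adjusted p = 0.0584). Its normalized log2 intensity there was 13.74 ± 0.31 in HAB and 13.09 ± 0.26 in LAB. In the NAc 9 of 10 arrays were above 0 (mean 0.41 ± 0.35), while the CeA and SON had means of -0.26 ± 0.30 and -0.25 ± 0.56. The second spot of Dnajb6 gave 0.33 ± 0.37 in the Cg and was counted in the NAc instead, from 0.02 over 0.49 to 0.85 with a mean of 0.47 ± 0.31. Both spots passed the F-test (adjusted p = 0.00218 and 0.00312), and over the 7 regions they had r = 0.812.

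Dnajb3 was highest in the SON, from -0.52 over 0.64 to 1.44, with a mean of 0.58 ± 0.70 and 8 of 10 arrays above 0. In the MeA it was on the other side, from -0.81 over -0.28 to 0.05 with a mean of -0.34 ± 0.28 and 8 of 10 arrays below 0. Dnajc2, which binds ribosomes, and Dnajc3 had their lowest values in the BLA, at -0.65 ± 0.68 and -0.47 ± 0.76. Dnajc2 was above the empty spots on 1 of 10 BLA arrays in each line. The second Dnajc3 spot was at 0.42 in the BLA, but above the empty spots on at most 6 of 70 arrays in either line. Dnaja2, a general partner of HSP70, went from -0.34 in the CeA to 0.38 in the Cg and just missed the F-test (adjusted p = 0.0557). Dnajc5, the cysteine string protein of synaptic vesicles, was between -0.13 and 0.30. The brightest DnaJ spot, of Dnajb12, ran from -0.29 in the Cg to 0.28 in the CeA and was saturated on 1 array. The other Dnajb12 spots were above the empty spots on at most 19 of 70 arrays.

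Spots that share a Name did not always share a profile. The Name "heat shock protein, 1" has 5 spots, and its brightest stayed between -0.29 and 0.33. A pair of dimmer spots, with mean intensities of 2723 and 2182.4, was higher in HAB in the BLA (0.65 ± 0.61 and 0.71 ± 0.63) and CeA (0.90 ± 0.61 and 0.74 ± 0.33, or 0.77 ± 0.47 and 0.72 ± 0.34 without the dim array) and had r = 0.876 over the regions. The dimmer of them was counted as higher in the CeA, from 0.17 over 0.73 to 1.31, and as lower in the PVN (-0.43 ± 0.22). A further spot, with a mean intensity of 3564, was lower in the PVN (-0.47 ± 0.21) and higher in the MeA (0.43 ± 0.26), each with 10 of 10 arrays. These 3 spots passed the F-test (adjusted p = 5.14e-05, 6.01e-05 and 0.00235) and the others of the Name did not, so the brightest spot does not stand for all spots of this Name. "heat shock protein, A", in contrast, was lowest in the CeA on its brighter spot, from -3.10 over -0.47 to 0.25 with a mean of -0.69 ± 0.90, and at -0.25 on the dimmer one. Without the dim array these means were -0.42 ± 0.31 and -0.16 ± 0.58, and the Name no longer passed the F-test, while the other 7 members did.

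**Figure D3:**
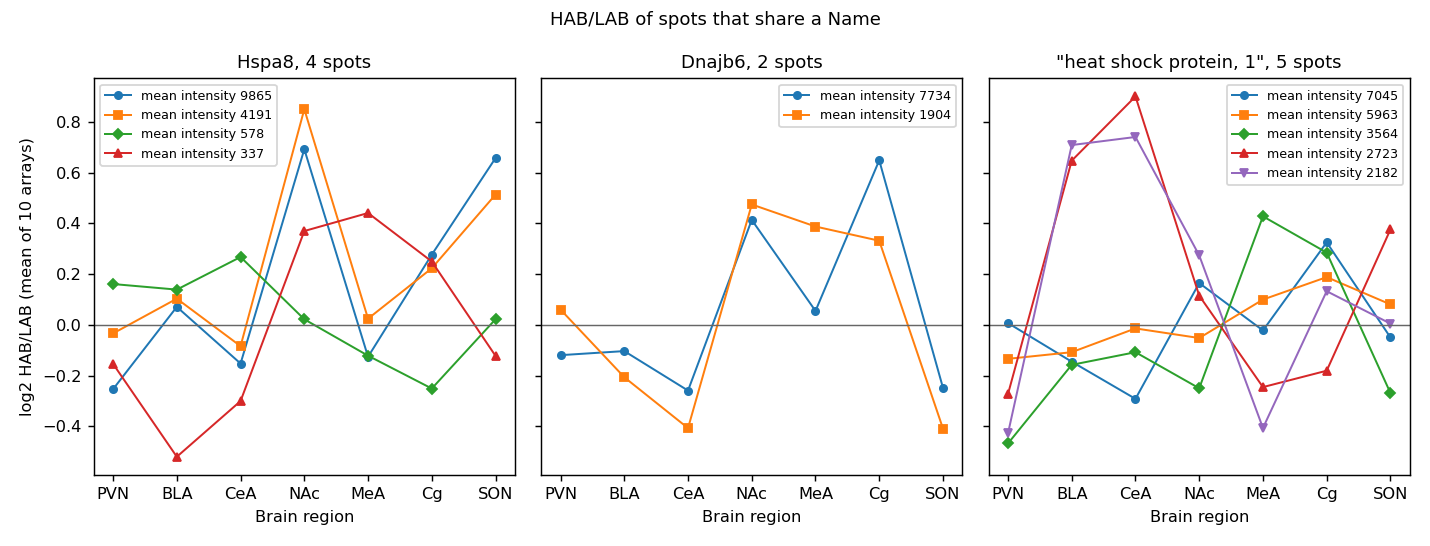
Mean log2 HAB/LAB over 10 arrays (y axis) in the 7 regions (x axis) for the spots that share the Name of Hspa8, the Name of Dnajb6 or the Name "heat shock protein, 1", each line 1 spot labelled by its mean intensity over all arrays. The brighter spots of Hspa8 run together (0.69 and 0.85 in the NAc), while the spots of "heat shock protein, 1" split in the BLA and CeA.

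Over the whole set the members had medians above that of all probes in the NAc, Cg and SON and below it in the CeA and BLA. The median of the 51 members was 0.11 in the NAc, 0.12 in the Cg and 0.07 in the SON, against 0.008, 0.004 and -0.002 over all probes. It was -0.06 in the CeA and -0.05 in the BLA, and -0.008 and -0.003 in the PVN and MeA. Positive were 32 members in the NAc (62.7%, against 51.2% of all probes and 56.7% of those above the empty spots), 33 in the Cg (64.7%, against 50.8% and 51.7%) and 33 in the SON (64.7%, against 49.7% and 51.6%). In the CeA 19 were positive (37.3%, against 51.05% and 45.6%), in the BLA 19 (37.3%, against 49.2% and 47.4%), in the PVN 25 and in the MeA 24. On single arrays the median of the members was above 0 on 10 of 10 arrays in the NAc (0.05 to 0.32) and on 8 of 10 in the SON (-0.14 to 0.30), but on 6 of 10 in the Cg. In the CeA it was above 0 on 2 of 10 arrays (-0.30 to 0.08), and in the BLA on 4 of 10 (-0.22 to 0.16). The median of the 51 members was smaller in size than its SD over the arrays in the BLA and CeA (SD 0.11 each), the SON (0.14) and the Cg (0.16). Only in the NAc did it exceed that SD (0.11 against 0.10). Without the dim array the CeA median was -0.08. Among the 38 members above the empty spots it was -0.19, against -0.03 over all probes above the empty spots, where the NAc was at 0.04. The quartiles of the members in the NAc, -0.05 and 0.24, overlap widely with those of all probes, -0.16 and 0.17.

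**Figure D4:**
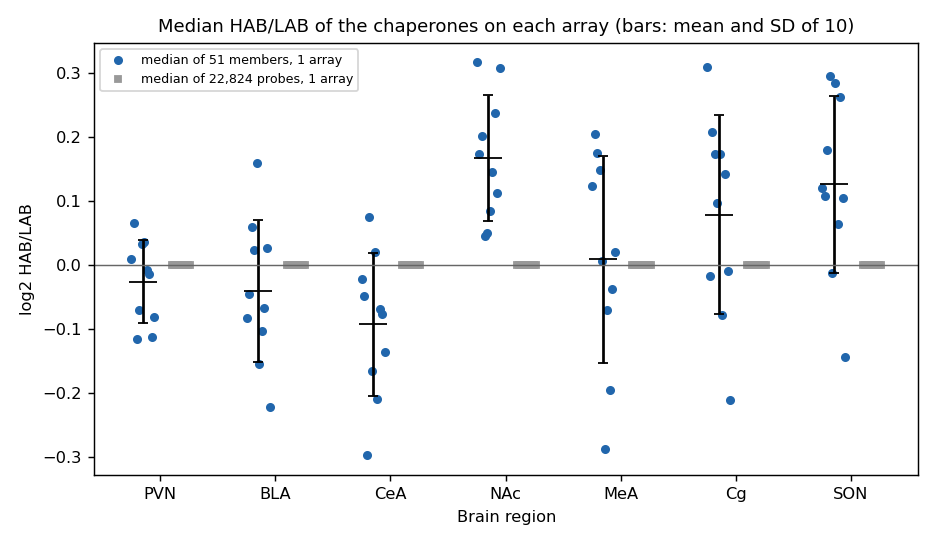
Median log2 HAB/LAB of the 51 chaperones on each array (blue circles, with the mean and SD of 10 arrays) and of all probes on the same array (grey squares) in the 7 regions. All 10 NAc arrays have a member median above 0 (0.05 to 0.32), and 8 of 10 CeA arrays have one below 0.

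Marker genes of other cell types also differed between the pools. In the NAc the summed normalized level of 6 oligodendrocyte markers was 50796 to 83113 in HAB and 97646 to 157556 in LAB, lower in HAB on 10 of 10 arrays, with Mobp at -1.21 and Cnp at -1.36 but Mbp at 0.46. In the Cg it was 44943 to 63409 in HAB and 66585 to 106867 in LAB, again with Mobp (-0.89) and Cnp (-0.99) opposite to Mbp (0.64). In the CeA the ranges overlapped, 66225 to 125392 in HAB and 31215 to 113023 in LAB, with Mobp at 0.72, Cnp at 0.69 and Mbp at -0.40. In the SON the sum of 2 blood markers was 1849 to 11935 in HAB and 1090 to 2558 in LAB, led by Hbb-b1 at 1.88. The blood sum was higher in HAB on all 10 arrays of the PVN, Cg and SON and 8 of 10 in the NAc. Hbb-b1 was counted as higher in the PVN (0.99), the NAc (0.59) and the Cg (0.83) as well. The other blood marker, Hba-a1, was at -0.32 in the PVN, -0.17 in the NAc and -0.29 in the Cg. In the SON it was at 0.44. The higher blood sums of the PVN, NAc and Cg thus rest on Hbb-b1 alone. In the BLA the sum of 5 choroid plexus markers was 3737 to 9366 in HAB and 13427 to 24684 in LAB, lower in HAB on 10 of 10 arrays, with 2 of the 5 counted as lower, and the oligodendrocyte sum was 42122 to 86666 in HAB and 70299.8 to 106499 in LAB, also lower on 10 of 10. Of the 6 oligodendrocyte markers 4 to 6 were above the empty spots, depending on the region, 1 to 2 of the 2 blood markers, and 4 of the 5 choroid plexus markers in the BLA. Their part in the chaperone values was not tested, and in such pools fewer cells of a type cannot be told apart from less RNA per cell.

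Scans fell on more than 1 day in 3 regions, the BLA, CeA and Cg. A counted value has the same sign on each day by its rule, so only the sizes can be compared. The days also differ in dye orientation. The 2 CeA arrays of the first day, the dim one among them, and the 4 Cg arrays of the second all had HAB in Cy3. In the CeA the means over 2 arrays of the first day and 8 of the second were -0.80 and -0.50 for Cct8, -1.06 and -0.66 for Ppid and -1.21 and -0.66 for Hspd1. In the Cg Dnajb6 had 0.64 over 6 arrays and 0.66 over 4.

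**Figure D5:**
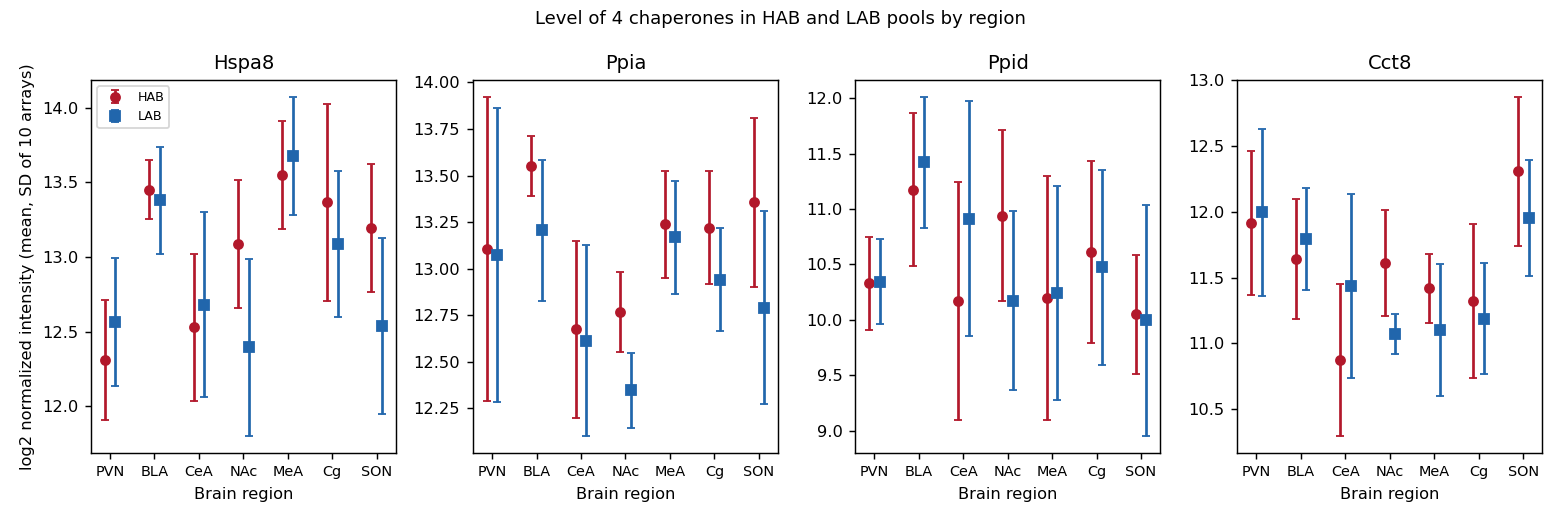
Normalized log2 intensity (y axis, mean and SD of 10 arrays) of Hspa8, Ppia, Ppid and Cct8 in HAB (red circles, left) and LAB (blue squares, right) in the 7 regions. HAB lies above LAB for Hspa8, Ppia and Ppid in the NAc (Hspa8 13.09 against 12.39) and below it for Ppid and Cct8 in the CeA (Cct8 10.87 against 11.44), while the height of one panel cannot be set against that of another.

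Heat shock factor letters were searched in the promoters, since heat shock factors act there and since Hspd1, Dnajb6 and Cct8 carried counted values on single regions. The RefSeq windows (build GRCm38.p6) reach from 250 bases before to 50 after a transcription start, and 36 of the 47 member symbols have one. The 8-letter motifs GAANNTTC and TTCNNGAA, each its own reverse complement, so that both strands are covered, and able to overlap each other, were found in 10 of the 36 genes (27.8%), against 17.0% of 27025 genes with a window, and in 11 of their 46 windows (23.9%), against 15.1% of all windows. The genes were Cct2, Cct6a, Dnaja1, Dnaja4, Dnajb6, Hspa1b, Hspb1, Hspb3, Hspd1 and Hspe1. Of these, Hspd1 was lower in the CeA and Dnajb6 higher in the Cg, and the other 8 held no counted value. Below, capitals mark these letters, each sequence is read on the strand of its gene, and the windows of Hspd1 (chr1:55087883-55088182, minus strand) and Dnajb6 (chr5:29735648-29735947, plus strand) are shown for their overlapping matches and that of Cct8 (chr16:87495820-87496119, minus strand) for having none.
Hspd1: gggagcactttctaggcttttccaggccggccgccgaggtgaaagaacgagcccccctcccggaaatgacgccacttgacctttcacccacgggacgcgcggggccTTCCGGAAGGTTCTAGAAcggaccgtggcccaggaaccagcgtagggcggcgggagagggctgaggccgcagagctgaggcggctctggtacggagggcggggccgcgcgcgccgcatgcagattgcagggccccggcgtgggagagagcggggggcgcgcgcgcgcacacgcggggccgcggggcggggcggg
Dnajb6: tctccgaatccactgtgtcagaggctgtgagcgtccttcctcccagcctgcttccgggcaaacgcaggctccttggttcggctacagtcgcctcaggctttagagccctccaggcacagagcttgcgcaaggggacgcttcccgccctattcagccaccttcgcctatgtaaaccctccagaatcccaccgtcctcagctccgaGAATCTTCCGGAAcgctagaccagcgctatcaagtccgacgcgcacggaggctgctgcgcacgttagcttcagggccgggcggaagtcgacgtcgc
Cct8: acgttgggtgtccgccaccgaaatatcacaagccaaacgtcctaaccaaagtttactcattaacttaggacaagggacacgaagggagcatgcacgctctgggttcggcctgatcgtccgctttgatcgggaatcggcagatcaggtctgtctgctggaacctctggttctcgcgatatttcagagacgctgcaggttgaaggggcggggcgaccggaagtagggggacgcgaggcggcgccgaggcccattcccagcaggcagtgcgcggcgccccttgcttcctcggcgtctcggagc
Hspd1 holds 3 matches in the window shown, which start at bases 107, 112 and 117, and its second window (chr1:55088194-55088493) holds 0. Dnajb6 holds 2, which start at bases 205 and 210, and its second window (chr5:29735729-29736028) holds 2 as well. The Hspd1 window shown overlaps that of Hspe1 (chr1:55087898-55088197), which is read from the opposite strand and holds the same 3 matches. In the CeA, where Hspd1 was at -0.77, Hspe1 was at 0.11. The letters are a description of these windows and not sites of binding.

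Other genes of protein folding whose Names begin otherwise were read from 7 lists of 86 genes, of which 57 were on the array. None passed limma over the 7 regions, and 3 of them, among them Calr (mean 0.19) and Erp44 (0.18), had an unadjusted p under 0.05. The F-test passed 3 of 57 (5.26%), near the 4.06% of all probes and the 7.08% of probes above the empty spots. They were Chordc1, an HSP90 co-chaperone (-0.84 in the CeA, -0.72 without the dim array, adjusted p = 3.77e-04), Canx, the lectin chaperone calnexin (-0.78 in the CeA with and without it, adjusted p = 4.93e-05), and Bag4, a nucleotide exchange factor of HSP70 (0.56 in the Cg, adjusted p = 0.0128). Naca, of the nascent chain complex, was counted as lower in the Cg (-0.42). The medians of the 57 genes lay between -0.01 in the PVN and 0.08 in the Cg.

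The probes whose profile over the 7 regions was most like that of Hspa8 included the spot named synaptic vesicle glycoprotein 2 a (r = 0.990). Those most like Cct4 included mitogen activated protein kinase 9 (r = 0.989) and synaptosomal-associated protein (0.981), and those most like Cct8 included N-myc downstream regulated 1 (0.987). For Ppid melanoma antigen, family E, 1 was among the nearest (0.987), for Pfdn5 calmodulin 3 (0.971), and for "heat shock protein, A" splicing factor, arginine/serine-rich 3 (0.987). These likenesses are Pearson's r over 7 regions among 22824 probes measured on the same arrays, and they describe the profiles only.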

How the data were processed

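MPIP24k cDNA arrays, 70 in all, were read as 2 channels each, with region, dye and replicate number taken from the labels. The authors deposited scanner intensities of each spot and its surroundings, with no normalization, and a value table of normalized log2 ratios for 18914 spots, whose columns correlated with the ratios computed here at 0.861 to 0.972 in the direction HAB over LAB. On 3 arrays the dye of a channel was read from the name of its image. Intensities were background corrected in limma 3.58.1 (R 4.3.3) by normexp with an offset of 50, smoothed by loess with a span of 0.4 (control spots at weight 0) and centred on the median of each of 48 print-tip blocks. After 1368 control and empty spots, 22824 probes remained. All ratios have HAB on top, and the means of both dye orientations were averaged. The orientation means of all probes correlated at -0.47 to 0.01 within the regions, so a dye effect of a probe is in each orientation and cancels only in their average. A spot was above the empty spots when its foreground was over the empty-spot median by more than 2 MAD (1170 empty spots, per array and channel). Tests were limma over 7 region values, limma over 10 arrays with a dye term, and limma's F-test over 70 arrays, each fitted on all probes with p-values adjusted by Benjamini-Hochberg and called under 0.05. The size of 1.3-fold is taken from the methods of the study, which joined it to an adjusted p and to several regions, while here it is used in a single region together with the sign of all 10 arrays. The scripts were tested on simulated data. Named were members counted in a region, past a test, with the 4 largest means in each direction, or brightest of a family. The members and gene lists were chosen with earlier results of these data known. Array values have no counting depth, and their number limits the precision. Values of some listed genes are not reported here.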

Additional observations from a re-analysis of the deposited data

Results flagged for a closer look

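Of 32 groups of 5 arrays tested for an array far from the others, 1 was singled out, and chance singles out about 1 in 20. It was Hspa8 in the SON with HAB in Cy3, where replicate 3 had a log2 HAB/LAB of 1.66 and the others had 0.449 to 0.800. The gap to the nearest array was 0.710 of the whole range. The value of Hspa8 in the SON was 0.55 without that array and 0.66 with it.

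The line difference of 8 chaperones was unequal over the regions by limma's F-test, with adjusted p-values of 1.67e-05 for Hspa8, 0.000165 for Cct8, 0.00218 for Dnajb6, 0.00402 for Ppid, 0.0278 for Dnajb3, 0.0309 for Pfdn5, 0.0311 for Cct4 and 0.0383 for "heat shock protein, A". The test compares pools of the same mice over arrays.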

How the results depend on the processing

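The count of 0 members past the test over the regions held under all 23 alternatives but 1. On the arrays with HAB in Cy3 alone 2 members passed. In a single orientation a line difference cannot be told apart from a dye effect of the probe. The share of all probes passing there is not given here, so the 2 are not set against a background. The member median of the CeA was -0.19 among members above the empty spots. The 9 values counted within regions were 2 by limma over 10 arrays with a dye term and 0 when the replicate number was added as a block. Both of the 2 were in the NAc, where 59 of all probes were called higher and 231 lower, and 86 with the block. The replicate numbers did not pair the orientations, as same-numbered arrays correlated at -0.04 to 0.05, and the block left the F-test at 8 members. Leaving out each replicate number gave 9 to 13 counted values. With fewer arrays fewer signs must agree, so a counted value can be lost only through its mean, and these counts do not measure stability. Past the F-test were then 4 to 5 members. The alternatives added after seeing the data gave 3 with HAB in Cy3 alone, 11 with HAB in Cy5 alone and 9 in the authors' value table (4180 probes tested). The share of all probes passing in each of these fits is not given here. Without the dim CeA array, also added, 7 members passed and 4 were counted in the CeA, where only 9 arrays had to share a sign. The shares of all probes without that array are not given here either, so these counts are not set against a background. Of 560 alternative means of named spots 80 changed sign, none of them past the test. The causes were not tested. Dim spots limit what the ratios of 13 members can show.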
